A study of Homo sapiens with 2 samples.

Results

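The long noncoding RNAs (lncRNAs) described here are those transcribed from the strand opposite to a protein-coding gene. They were taken from the authors' annotated lists of lncRNA probes that changed in SK-NEP-1 cells under LBH589, as every probe whose relation to a coding gene reads natural antisense or intronic antisense in all of its rows. This gave 457 probes of the 2002 lncRNA probes in the rows used, or 22.8%, against 58921 probes on the array. Of the 457, 227 were natural antisense, 200 were intronic antisense, and 30 carried both relations in different rows. A further 21 probes had an antisense relation in some rows and another relation in others and were left out. The 457 probes read 389 lncRNAs opposite 399 coding genes, and all 862 rows placed the lncRNA on the strand opposite to its gene. Because the probes were selected on their difference between these same arrays, by the authors, the size and direction of each probe's own change are a description and carry no test.

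A natural antisense transcript overlaps exons of the gene on the other strand, so that both RNAs share complementary sequence, while an intronic antisense transcript lies opposite an intron. Antisense RNAs are known to act on their own locus by recruiting chromatin modifiers, by transcription running against that of the sense gene, or by pairing with the sense RNA, and many have no known role. LBH589 (panobinostat) inhibits histone deacetylases, which take acetyl groups off histone tails, and antisense transcripts in the HOX clusters are among the best studied lncRNAs of chromatin control.

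SK-NEP-1 is an established human line, labelled as Wilms tumor of the kidney and known in the field to have features of Ewing sarcoma. One culture was treated with 100 nM LBH589 for 24 h and the other with DMSO, the solvent, and each RNA was hybridised to 1 Arraystar lncRNA array in a single colour. Of 7 kidney progenitor and Wilms tumor markers none had a probe in the named rows, and of 7 Ewing sarcoma markers only NKX2-2 did, with a signal of 290.0 in the DMSO array and 6.42 in the LBH589 array, where it did not pass the background flag. The label could therefore not be checked further. With 1 array per condition no test between conditions is possible, and differences between 2 cultures cannot be told apart from those due to LBH589. In bulk RNA, fewer expressing cells and less RNA per cell cannot be told apart either.

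Each value is the processed signal of a probe on 1 array, and each difference is the log2 signal minus the 75th percentile of its array, LBH589 minus DMSO. That percentile was 188.6 in the DMSO array and 108.4 in the LBH589 array. The error given with a difference is the scanner software's own estimate for the spots, combined over both arrays on the log2 scale, and it covers the measurement of the spots but not the spread between cultures. For the antisense probes measured on both arrays it had a median of 0.22 and ran from 0.20 to 0.36. On the 20 probes spotted 10 times, the SD between spots of an array had a median of 0.07 log2 and a maximum of 0.36. Most of these were far brighter than the antisense probes, whose median signals were 47.7 in DMSO and 36.4 with LBH589. The dimmest, at 42.2 in DMSO and 18.5 with LBH589, had an SD of 0.36 on each array. Another, at 53.5 and 93.5, had 0.17 and 0.15. Where a probe was not well above background on one array, the difference is a bound: the dim side was given the lowest signal that passed the background flag there, 21.3 for DMSO and 14.5 for LBH589, or its own signal where that was higher, as for 5 antisense probes, and the result is written "at least". The flag is a lenient limit: the highest of the 60 negative-control probes averaged 72.3 in DMSO and 33.2 with LBH589, and 46 and 24 of the 199 antisense probes measured on both arrays lay below these on the respective array. For them the size of the difference is less sure than its spot error says.

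The probes are 60 bases long, and each value below is the signal of such a stretch. Shown are probes behind the HOX, largest-change and opposite-direction results, and RP11-264F23.3, from a pair in which both RNAs were lower. They are written 5′ to 3′ as the array's annotation gives them, and capitals mark the letters AATAAA, the canonical polyadenylation signal, where they occur.
HOTAIRM1: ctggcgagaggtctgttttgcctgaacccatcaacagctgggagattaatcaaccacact
HOXD-AS2: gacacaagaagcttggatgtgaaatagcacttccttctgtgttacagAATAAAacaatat
HOXC-AS2: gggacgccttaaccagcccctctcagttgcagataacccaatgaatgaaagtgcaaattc
RP11-187O7.3: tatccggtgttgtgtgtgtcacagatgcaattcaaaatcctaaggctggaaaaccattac
RP11-674N23.1: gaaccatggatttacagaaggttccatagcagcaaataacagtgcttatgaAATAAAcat
RP11-70C1.1: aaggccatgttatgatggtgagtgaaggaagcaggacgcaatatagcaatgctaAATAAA
BC065231: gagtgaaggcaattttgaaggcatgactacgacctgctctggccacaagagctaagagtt
LSAMP-AS3: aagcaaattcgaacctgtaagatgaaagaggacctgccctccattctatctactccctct
ENOX1-AS2: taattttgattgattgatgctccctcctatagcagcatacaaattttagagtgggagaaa
RP11-264F23.3: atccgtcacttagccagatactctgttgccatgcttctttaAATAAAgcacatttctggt

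Of the 457 antisense probes, 228 stood in the list of higher and 229 in the list of lower lncRNAs. Signals ran from 4.25 to 51107 in the DMSO array and from 3.0 to 14833 in the LBH589 array. Only 199 probes were well above background on both arrays, 111 from the higher and 88 from the lower list. Another 116 higher probes were read on the LBH589 array alone and 140 lower probes on the DMSO array alone, so that 256 of the 457 were not well above background in one of the cultures. For 19 of those 140 the bound fell short of any fold, 1 lower probe opposite RORA was not well above background on either array, and 1 higher probe opposite WDR86 had an outlier spot.

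At least 2-fold higher with LBH589 were 189 antisense probes, where 12.3% were among the 41574 probes of any kind that passed the background flag on either array. At least 2-fold lower were 145, where 10.2% of all probes were. At least 5-fold higher were 100, beside 2.49% of all probes, and at least 5-fold lower were 63, beside 1.65% of all probes. As the lists were drawn on this contrast, nothing is read from these shares. With no scaling of the arrays the split became 158 higher and 190 lower at 2-fold, and 51 higher and 124 lower at 5-fold. At 5-fold the counts were 40 and 20 with normexp background correction, and 179 and 106 where a dim probe kept its measured value. At 2-fold they were 227 higher and 228 lower with that value, and 111 and 88 among probes measured on both arrays alone. Probes measured on both arrays had a median difference of 2.48 in the higher list, from 1.91 to 6.48, and of −2.37 in the lower list, from −5.59 to −1.65. Natural and intronic antisense probes had much the same medians, 2.41 and 2.54 in the higher list and −2.36 and −2.42 in the lower list. The last 3 members with a value in the higher list were RP11-429G19.2, AC007254.3 and RP11-954J6.3, higher by at least 0.96, 1.73 and 0.50. In the lower list they were AL121980.1, with a bound of −0.53, MFI2-AS1 at −1.65 and a C17orf76-AS1 probe at −1.65. Probes further down the lists were not used here.

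**Figure D1:**
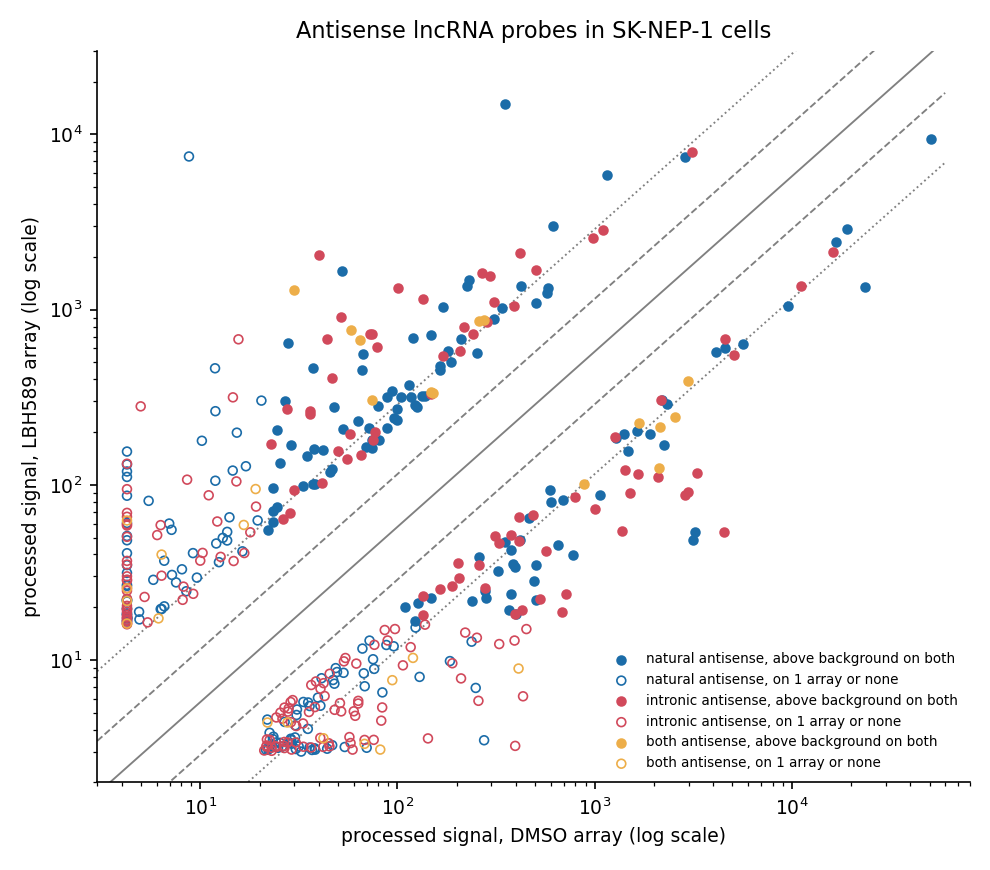
Processed signal of each antisense lncRNA probe in the DMSO array (x, log scale) and the LBH589 array (y, log scale), filled where it was well above background on both arrays and open otherwise, coloured by relation to the coding gene. The solid line marks equal scaled signal, dashed lines 2-fold and dotted lines 5-fold; the 199 filled probes form 2 bands, with no probe between them because the lists hold changed probes only, and RP11-70C1.1 stands alone at upper left with 8.76 and 7476.

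The largest measured increase was that of RP11-187O7.3, an intronic antisense lncRNA of ESRRB at chr14:76961706-77193055 (hg19, minus strand). ESRRB encodes an orphan nuclear receptor of pluripotent cells. RP11-187O7.3 gave a signal of 40.1 in the DMSO array and 2057 in the LBH589 array, 89.3-fold higher (6.48 ± 0.26 log2, measurement error). RP11-674N23.1, which starts inside SOGA2, a gene for a microtubule-binding protein, at chr18:8695854-8707619, went from 29.8 to 1301 (6.25 ± 0.29). The DMSO signals lay within the range of the negative-control probes for 7 of the 8 largest increases, these included.

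RP11-727F15.9 at chr11:62600407-62601391 lies wholly within WDR74, a ribosome biogenesis gene, and was at 353.0 and 14833 (6.19 ± 0.20). RP11-796E2.4 overlaps the start of BTG1, an antiproliferative gene, by 325 bases at chr12:92539349-92561336, and its signal was 52.3 and 1657 (5.78 ± 0.24). AL832163, which overlaps the start of AARD, was at 27.8 and 644.1 (5.33 ± 0.30). The remaining 3 of the 8 largest were RP11-761I4.3 in TMC3, a member of the transmembrane channel-like family (4.94 ± 0.24), NPSR1-AS1 opposite the neuropeptide S receptor gene (4.75 ± 0.25), and RP11-286E11.1, which reaches both the cytochrome P450 gene CYP2U1 and the sphingomyelin synthase gene SGMS2 (4.52 ± 0.23).

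Larger still, but as a bound, was RP11-70C1.1, a natural antisense lncRNA that overlaps the start of CCDC13 at chr3:42812104-42815127. Its probe, which ends in the letters AATAAA, read 8.76, a dim signal below the background flag, in the DMSO array and 7476 in the LBH589 array, at least 610.4-fold higher. The next bounds were far smaller: CTD-2194D22.3, inside the homeobox gene IRX4, was at least 55.2-fold higher (15.6 and 676.3), and RP11-983P16.4, inside the translation initiation factor gene EIF4B, was at least 37.7-fold higher (11.9 and 462.1).

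Among the decreases, PDE4DIP, which encodes myomegalin, an anchor of a phosphodiesterase at the Golgi and centrosome, held a pair of lncRNAs. BC065231 at chr1:145004781-145005287 had a signal of 4521 in the DMSO array and 53.8 in the LBH589 array, 48.3-fold lower (−5.59 ± 0.22). BX647792 at chr1:145013719-145018395 went from 1382 to 54.6 (−3.86 ± 0.22). Both passed the background flag on each array, so these differences are measured and not bounds.

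A second group lay on the same chromosome opposite AL592284.2. AL592284.1 at chr1:144481627-144521970 was at 3172 and 48.2 (−5.24 ± 0.23), and LOC728855 at chr1:144339563-144340773 was at 2887 and 87.6 (−4.24 ± 0.21). The 5 probes of AL592284.1 ran from −5.24 to −2.11, bounds included. Of all 457 antisense probes, 229 were in the lower list and 145 were at least 2-fold lower. Opposite AL592284.2 lay 13 probes for 5 lncRNAs, all in the lower list and all at least 2-fold lower. For 12 of them the annotation names further transcripts that the probe can bind, so the 13 values may not be separate readings of separate loci.

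PVT1, the lncRNA next to MYC, was annotated as intronic antisense to TMEM75 and went from 2990 to 91.3 (−4.24 ± 0.21). AC124789.1 in ARHGAP23 was at 717.3 and 23.8 (−4.11 ± 0.28). FLJ46906 in NHSL1 was at 529.6 and 22.2 (−3.78 ± 0.31), and RP11-31F15.1, which overlaps the start of SLC16A1, the monocarboxylate transporter gene, by 494 bases, was at 503.4 and 22.1 (−3.71 ± 0.29). For these last 3 the LBH589 signal lay within the range of the negative controls. A second FLJ46906 probe, clear of that range on both arrays, was at 1411 and 195.9 (−2.05 ± 0.21).

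In the HOX clusters, which encode the homeodomain factors that set position along the body axis, the named probes of a cluster lay on the same side. Of 8 antisense probes, the 2 of the HOXA cluster were higher and the 6 of the HOXC and HOXD clusters lower. Their median was −1.79, bounds included, and 4 of the 8 were measured on both arrays. HOTAIRM1, transcribed from the 3′ end of the HOXA cluster and studied in myeloid differentiation, overlaps HOXA2 by 157 bases at chr7:27135713-27139877. Its signal was 37.4 in DMSO and 465.5 with LBH589 (4.44 ± 0.26), or 21.6-fold higher, the DMSO signal again lying within the range of the negative controls. HOXA-AS4, opposite HOXA10, was not well above background in DMSO (4.25) and reached 22.03 with LBH589, at least 1.80-fold higher, which is under 2-fold.

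HOXD-AS2, which overlaps the start of HOXD3 by 142 bases at chr2:176999569-177001826, had a signal of 23546 in DMSO and 1341 with LBH589 (−3.34 ± 0.20), 10.1-fold lower and still well above background. HOXC-AS2 at chr12:54388992-54390569 was at 881.7 and 101.5 (−2.32 ± 0.21). The probe of HOXC-AS3 that overlaps the start of HOXC10 was at 238.0 and 12.7, at least 9.42-fold lower, and the antisense probe of HOTAIR, an lncRNA known to bind the Polycomb complex PRC2, was at 51.8 and 5.08, at least 2.05-fold lower. For this HOTAIR probe the DMSO signal, too, lay within the range of the negative controls. The 2 probes of HOXC-AS1 were at 202.3 and 36.0 (−1.69 ± 0.24) and at 97.2 and 15.01 (at least 3.72-fold lower). They share 50 of their 60 bases, shown here in capitals, and so are not independent readings.
HOXC-AS1, probe 1: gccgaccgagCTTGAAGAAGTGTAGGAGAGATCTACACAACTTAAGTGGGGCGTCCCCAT
HOXC-AS1, probe 2: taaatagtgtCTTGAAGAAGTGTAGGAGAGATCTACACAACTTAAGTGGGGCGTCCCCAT

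The other HOX lncRNA probes in the rows used, annotated as intergenic or bidirectional, fell on the same sides. HOTTIP, which is transcribed from the 5′ end of the HOXA cluster and known to bind the activating WDR5 complex, was at 4.25 and 161.0, at least 13.1-fold higher. HOXA11-AS was at least 2.17-fold higher, with 4.25 and 26.6. The LBH589 signals of HOXA11-AS and HOXA-AS4 lay within the range of the negative controls. HOXB-AS5 was lower on both of its probes, with 2108 and 62.7 on the brighter one (−4.27 ± 0.22), and 2 further HOTAIR probes and 3 further HOXC-AS3 probes were also lower. Altogether 4 of 4 lncRNA probes of the HOXA cluster were higher, and 2 of 2 of HOXB, 10 of 10 of HOXC and 1 of 1 of HOXD were lower, where 52.7% of all lncRNA probes in the rows used were in the higher list. The 10 HOXC probes read 4 lncRNAs only, 3 of them HOTAIR and 4 HOXC-AS3, so they are not 10 separate observations.

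The HOX mRNA probes that were named were all in the lower list, and none came from the HOXA cluster. Of all named mRNA probes, 51.3% were in the higher list. HOXD13 went from 886.8 to 87.0 (−2.55 ± 0.21), HOXC6 was at least 7.18-fold lower (194.2 and 15.6), and HOXD10 was at least 3.08-fold lower (77.8 and 11.27). The bounds of HOXB5, HOXC4 and HOXC9 were under 2-fold. HOX genes and lncRNAs whose probes were not in these rows were not analysed here, so the counts do not describe whole clusters.

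**Figure D2:**
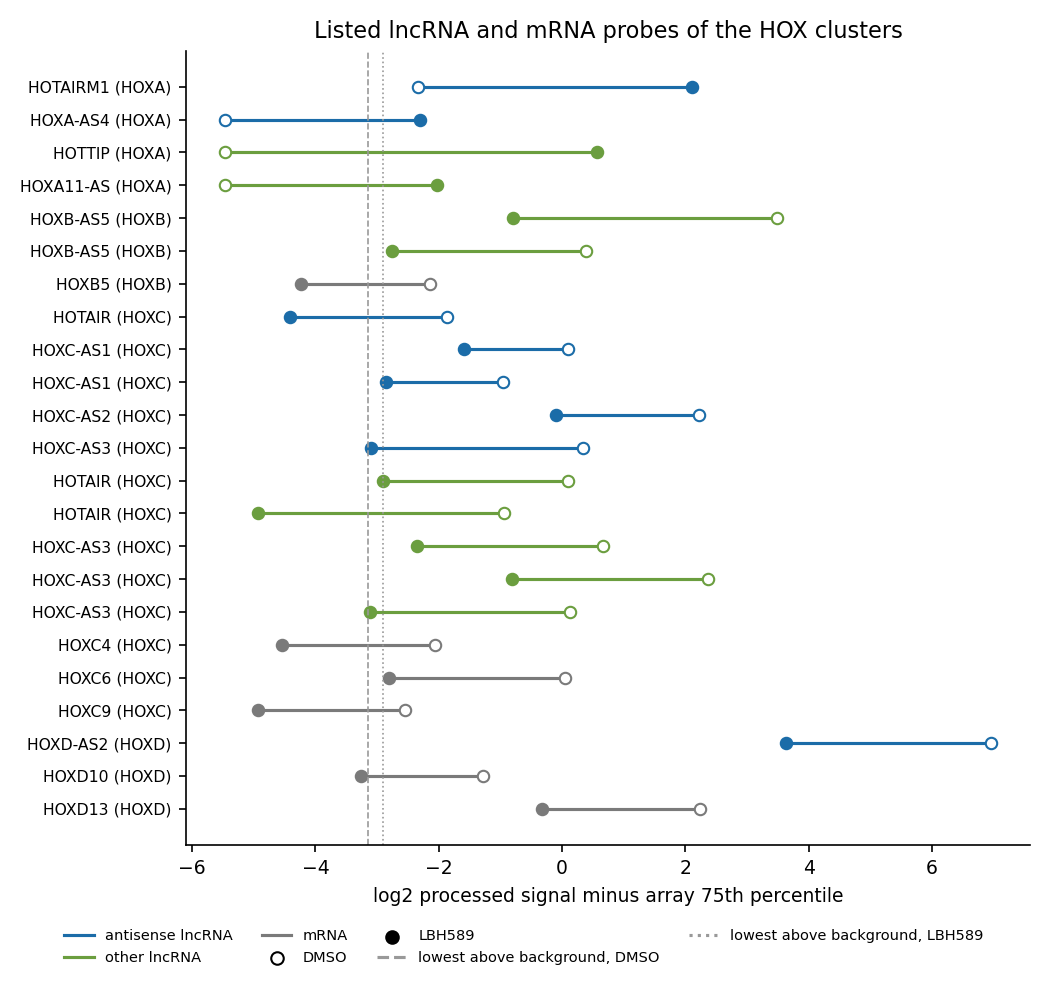
Scaled log2 signal (processed signal minus the array's 75th percentile) of each named HOX lncRNA and mRNA probe in the DMSO array (open) and the LBH589 array (filled), with the cluster in parentheses. The 4 HOXA probes move to the right, from below or near the detection limit (vertical lines) upward, and all other probes move to the left.

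To set antisense lncRNAs beside their genes, each antisense probe was paired with the brightest named mRNA probe of its gene. There were 66 such pairs, from 59 antisense probes and 51 genes. Some genes, CPB2, DNM3 and SLC6A15 among them, had 2 named mRNA probes, and only the brighter one is given here. The probes of a pair shared at most 9 complementary bases and at most 10 identical bases in a row, so the values of a pair do not come from the same stretch of sequence. In 38 pairs both members were at least 2-fold changed: in 22 both were lower, in 9 both were higher, and in 7 they went in opposite directions. In the remaining 28 at least one member did not reach 2-fold, and that member's value was a bound or missing. Where dim probes kept their measured values, 48 pairs went the same way and 18 opposite ways, and with only probes that passed the background flag in both, 17 and 4 did. Each list was drawn on change, so a pair enters only if both RNAs changed, and the shares do not describe all antisense loci.

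Of the pairs with both members lower, 11 were natural and 11 intronic antisense. Several shared a gene: with 1 pair per gene, that of the brightest antisense probe, 9 natural and 5 intronic pairs were lower in both. RP11-264F23.3 overlaps the start of CCND2, the gene of the G1 cyclin D2, by 2449 bases; its signal went from 653.6 to 45.1 (−3.06 ± 0.23), while that of the CCND2 mRNA went from 1307 to 128.0 (−2.55 ± 0.21). RP11-644F5.11 overlaps the start of the tetraspanin gene CD63 and was at −2.65 ± 0.24, with the CD63 mRNA at −2.86 ± 0.20. CTC-297N7.5 was at −2.32 ± 0.23 and the mRNA of its gene TMEM220 at −3.64 ± 0.21. In these 3 head to head loci both RNAs decreased 4.99-fold or more.

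Opposite LY6E, an interferon-induced gene, LOC100133669 was at −2.93 ± 0.21 and the mRNA at −2.82 ± 0.20. RP11-702H23.6 inside the potassium channel subunit gene KCNE3 was at least 10.9-fold lower and the mRNA 10.1-fold lower. RP11-37L2.1 inside STARD13 was at −2.95 ± 0.23 with the mRNA at −2.19 ± 0.28. The LBH589 signals of the KCNE3 and STARD13 mRNAs lay within the range of the negative controls. For chromatin genes, RP5-914P20.5 was at least 16.3-fold lower with the ADNP mRNA at −1.94 ± 0.25. This lncRNA overlaps the start of ADNP by 7 bases only and is annotated as antisense to DPM1 as well. RP11-521B24.5 inside MTA1, a subunit of the NuRD deacetylase complex, was at −2.39 ± 0.20 with the mRNA at least 8.97-fold lower. HOXC6 stood in 3 of these pairs, with HOXC-AS1 and HOXC-AS2, and the olfactory receptor gene OR2A1 in 5, with RP4-545C24.1 and RP4-798C17.6; such pairs share their mRNA value.

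Among the pairs with both members higher, 6 were natural and 3 intronic antisense. BC046483 overlaps the start of IDI1, which encodes isopentenyl diphosphate isomerase of the sterol pathway, by 65 bases; its signal was 65.99 and 452.3 (3.58 ± 0.22) and that of the IDI1 mRNA 41.2 and 99.4 (2.07 ± 0.26). RP5-1113E3.3 inside DFFA, the gene of the inhibitor of the caspase-activated DNase, was at 2.33 ± 0.21 and the mRNA, with 2248 and 10182, at 2.98 ± 0.20. RP11-98D18.9 was at 2.84 ± 0.34 and the mRNA of TDRKH, a Tudor domain gene of the piRNA pathway, at 2.47 ± 0.26. The DMSO signals of the IDI1 and TDRKH pairs lay within the range of the negative controls. At SNX10, a sorting nexin gene, AC004540.4 was at least 3.93-fold and at least 7.07-fold higher on its probes and the mRNA higher by at least 1.77 log2, none of them well above background in DMSO.

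The intronic pairs with both members higher were KB-1471A8.2 and DEPTOR, an mTOR inhibitor gene (2.11 ± 0.26 and 2.72 ± 0.21), LOC100506100 and ZER1, a substrate receptor of a CUL2 ubiquitin ligase (2.06 ± 0.22 and 2.85 ± 0.21), and RP11-712B9.2 and the sestrin gene SESN3, for which the lncRNA was at least 2.03-fold higher and the mRNA 14.6-fold higher. KB-1471A8.2 and the SESN3 mRNA lay within the range of the negative controls in DMSO. So did RP11-712B9.2 with LBH589, at 24.8.

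The 7 pairs in opposite directions were 6 intronic and 1 natural antisense. RP11-187O7.3, the largest measured increase, stood opposite an ESRRB mRNA that went from 167.3 to 23.4 (−2.04 ± 0.28). CPB2-AS1 was at 310.8 and 1110 (2.64 ± 0.21), while the mRNA of CPB2, a plasma carboxypeptidase that slows clot lysis, was at 900.1 and 20.4 (−4.67 ± 0.30). LSAMP-AS3 was at 169.8 and 542.1 (2.47 ± 0.21), and the mRNA of LSAMP, a neuronal cell adhesion gene, was at 2090 and 217.5 (−2.47 ± 0.21). The dim signals of RP11-187O7.3 in DMSO and of the ESRRB and CPB2 mRNAs with LBH589 lay within the range of the negative controls.

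ENOX1-AS2 lies inside ENOX1, a cell surface oxidase gene, and went the other way, from 5118 to 548.8 (−2.42 ± 0.20), with the mRNA at 42.9 and 120.1 (2.28 ± 0.25). DNM3OS, the host of a microRNA cluster inside the dynamin gene DNM3, was at least 2.34-fold lower and the mRNA was at 2.90 ± 0.25. AC137932.5 inside ANKRD11, a chromatin cofactor gene, was at least 7.11-fold higher and the mRNA at −2.25 ± 0.22. The natural pair was XLOC_009819 and SLC6A15, an amino acid transporter gene, which overlap by 1 base only: the lncRNA was at 2.68 ± 0.23 and the mRNA at least 3.77-fold lower. In DMSO the ENOX1 and DNM3 mRNAs, DNM3OS and XLOC_009819 lay within the range of the negative controls. With both members measured on both arrays, there were 9 natural pairs, all in the same direction, and 12 intronic pairs, of which 8 were in the same and 4 in opposite directions. Of those 8, 5 rest on the single OR2A1 mRNA value, so that counted by gene the intronic pairs were 4 in the same and 4 in opposite directions, and the natural pairs 8 in the same direction. The classes also share antisense values: probes of RP4-545C24.1 stand in intronic pairs with OR2A1 and again in natural pairs with ARHGEF35. The difference between the classes was not tested.

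**Figure D3:**
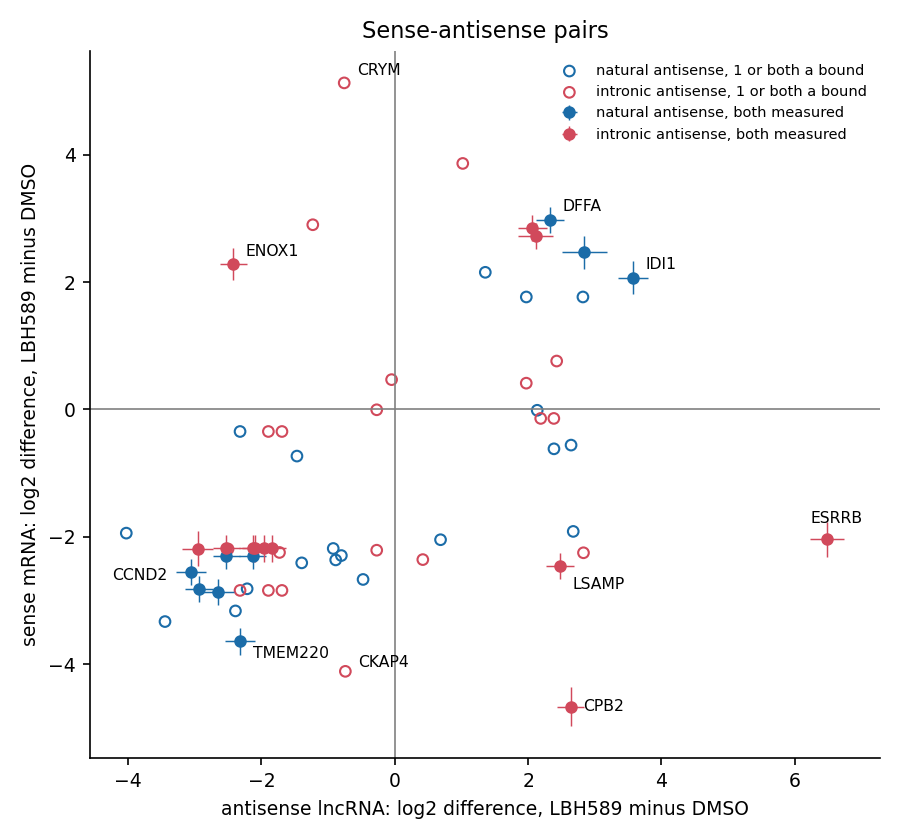
log2 difference (LBH589 minus DMSO) of the antisense lncRNA (x) and of the mRNA of its gene (y) for each pair with a value on both sides, filled with measurement error bars where both were measured on both arrays and open where one or both are bounds. Most points lie at lower left or upper right; ESRRB, CPB2 and LSAMP lie at lower right and ENOX1 at upper left.

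Probes of a single lncRNA could be set side by side where several were present. All entered because they changed, so an unchanged probe of the same lncRNA could not appear. The counts and gaps here describe changed probes only, and agreement between probes was not tested. Of 43 lncRNAs with more than 1 antisense probe, 19 had 3 or more, and for 18 of these all probes stood in the same list. Of all antisense probes, 49.9% were in the higher list. Among probe pairs of a single lncRNA measured on both arrays, the 13 that share 20 or more bases differed by a median of 0.11 log2 and at most by 0.68, while the 39 that share fewer differed by a median of 0.47 and at most by 4.02. CTC-463N11.3, inside RGMB, a gene of the repulsive guidance family and co-receptor for bone morphogenetic proteins, shows the first case, with differences of 4.12 ± 0.22, 3.74 ± 0.22 and 4.09 ± 0.22 from 3 probes that read nearly the same bases, marked in capitals.
CTC-463N11.3, probe 1: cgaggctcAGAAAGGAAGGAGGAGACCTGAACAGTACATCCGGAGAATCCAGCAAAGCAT
CTC-463N11.3, probe 2: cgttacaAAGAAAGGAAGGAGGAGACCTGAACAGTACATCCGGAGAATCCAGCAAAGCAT
CTC-463N11.3, probe 3: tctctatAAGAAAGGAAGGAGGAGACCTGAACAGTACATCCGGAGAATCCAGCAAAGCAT

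The other case was RP11-727F15.9, whose probes share no more than 5 bases and belong to transcripts with different ends. The probe of the transcript inside WDR74 was 73.1-fold higher, and the probe of the transcript at chr11:62599706-62601515, which runs past the end of WDR74, went from 45.7 to 118.0, only 4.49-fold higher (2.17 ± 0.25). The direction was shared and the sizes differed by more than the spot error, but the 45.7 of the second probe lies within the range of the negative controls, where the size is less sure.
RP11-727F15.9, probe of the transcript inside the gene: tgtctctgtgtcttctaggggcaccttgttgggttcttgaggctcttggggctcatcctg
RP11-727F15.9, probe of the transcript that runs past the end: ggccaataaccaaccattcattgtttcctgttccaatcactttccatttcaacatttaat

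NOP14-AS1, opposite the ribosome biogenesis gene NOP14, had differences of 1.96 ± 0.21, 2.26 ± 0.21 and 4.28 ± 0.31 on 3 unrelated probes. AC124789.1 had −2.31 ± 0.23, −2.14 ± 0.20 and −4.11 ± 0.28 on probes that share at most 9 bases, the smallest difference being that of the probe with 16245 and 2118. SNHG12, a small nucleolar RNA host that overlaps the end of TRNAU1AP by 8 bases, was at 1.95 ± 0.21 and 3.85 ± 0.32. In each of these 3 lncRNAs the largest difference was that of a probe whose dim side lay within the range of the negative controls: 26.9 in DMSO for NOP14-AS1, 23.8 with LBH589 for AC124789.1 and 24.6 in DMSO for SNHG12. The spread between their probes is therefore less sure than the spot errors say. By contrast, the 3 probes of LOC728875 share at most 5 bases and lay between −2.36 and −2.20.

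The single lncRNA with probes in both lists was C17orf76-AS1, another small nucleolar RNA host (also called SNHG29). Its 3 natural antisense probes, which read spliced transcripts at chr17:16342301-16345340 that overlap the end of FAM211A by 22 bases, were lower: 51107 and 9380 (−1.65 ± 0.20), 16737 and 2421 (−1.99 ± 0.20), and 2193 and 305.2 (−2.05 ± 0.20). Its intronic antisense probe reads a transcript of 635 bases whose genomic span reaches further, to position 16373962 deep inside FAM211A, and was at least 4.37-fold higher, with 17.9 and 53.5. The probes of the forms that end within the 22-base overlap and the probe of the form that reaches into the gene thus stood on opposite sides.

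**Figure D4:**
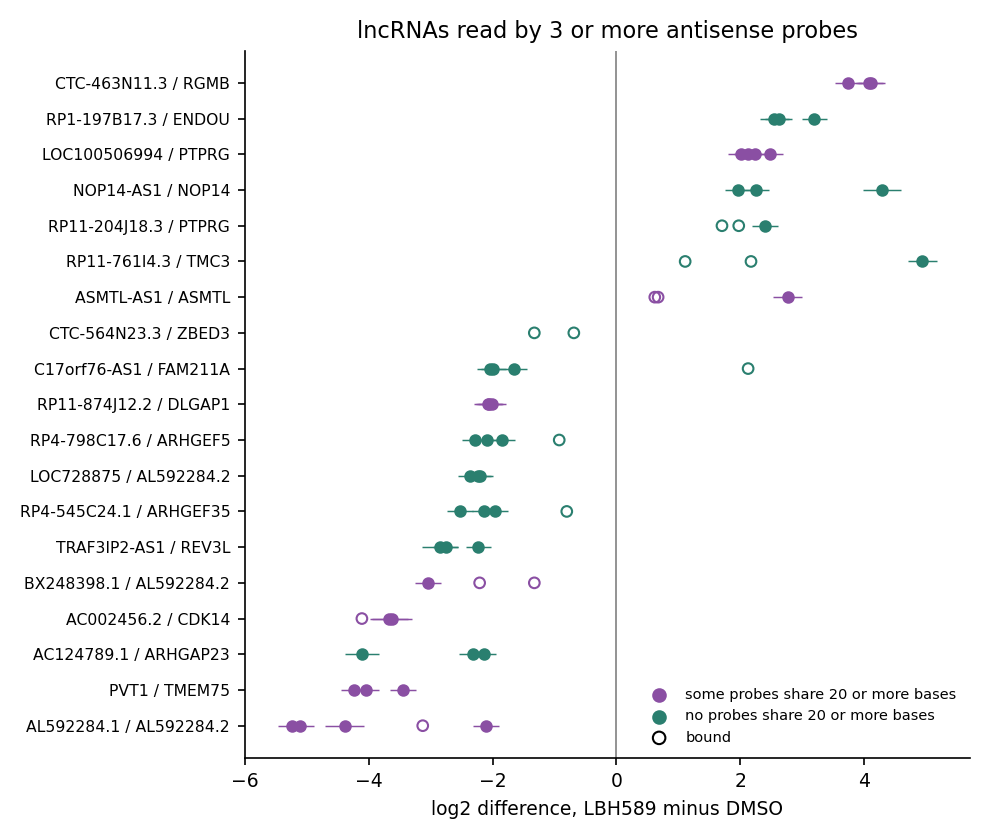
log2 difference (LBH589 minus DMSO) of each antisense probe of the 19 lncRNAs with 3 or more such probes, labelled with the lncRNA and its gene; filled points are measured on both arrays with measurement error bars, and open points are bounds. Probes of a lncRNA lie on the same side of 0 for 18 of the 19, the exception being C17orf76-AS1, and spread widely for NOP14-AS1, AC124789.1 and AL592284.1.

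Some genes were covered by several antisense lncRNAs. PTPRG, a receptor tyrosine phosphatase gene, had 8 probes for 3 lncRNAs, all higher by 1.71 to 2.48, bounds included; 3 pairs of its LOC100506994 probes share 20 or more bases, up to 50. DLGAP1, a postsynaptic scaffold gene, had 7 probes for 5 lncRNAs, all lower, 6 of them at least 2-fold. Beside both genes, 49.9% of all antisense probes were in the higher list. The 3 RP11-874J12.2 probes of DLGAP1 share up to 52 bases, and FLJ35776 covers nearly the same stretch. TMEM132D had BC060326, BC061923 and BC073948 within it, at 3.12, 2.23 and 2.67, which are transcripts of 1 place: the first and the last have the same start and end, and BC061923 has the same end. Such probes are not independent readings of the gene. In 6 genes the lists disagreed. MLLT6, a gene fused to MLL in leukemia, held CTB-58E17.9, with 120.2 and 690.4 (3.32 ± 0.21), and CTB-58E17.3, with 259.6 and 34.7 (−2.10 ± 0.24). TMEM44 held BC061632 (2.14 ± 0.20) and AC046143.3 (−3.06 ± 0.24). The others were FAM211A, given above, and CCDC144NL, EPB41L4A and WDR86, where at least one side had only a bound or no value.

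By the function of the sense gene, 16 antisense probes lay opposite chromatin regulators, 7 higher and 9 lower, where 49.9% of all antisense probes were in the higher list. Their median difference was −0.50, bounds included, beside 0.47 over all antisense probes with a value and −0.04 over all probes of the array treated in the same way. BC047484, opposite the start of INO80D of the INO80 remodeler, was 9.10-fold lower (−3.19 ± 0.28), RP11-73E17.2, opposite the start of BAZ1A of the ISWI complexes, was 11.4-fold lower (−3.51 ± 0.23), and AC009506.1, opposite BAZ2B, was at −2.49 ± 0.21. RP5-940J5.6 in CHD4, the remodeler of NuRD, was at 2.21 ± 0.26, and RP11-770J1.3, which reaches MLL, a histone H3 lysine methyltransferase gene, was at 1.94 ± 0.21. The LBH589 signal of BC047484, 23.8, and the DMSO signal of RP5-940J5.6, 38.3, lay within the range of the negative controls. No single direction held for the chromatin regulators.

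Opposite developmental transcription factors there were 25 probes, 12 higher, 12 lower and 1 without a value, a split like that of all antisense probes (49.9% in the higher list), and 5 of the 25 were measured on both arrays. Their median was 0.22, bounds included, over members going both ways. RP11-82C23.2, which overlaps the start of the LIM homeobox gene LHX5 by 70 bases, was at 66.6 and 560.1 (3.87 ± 0.22), and CTC-454M9.1 opposite MEF2C, a gene for a muscle and neuronal factor, was at 29.0 and 167.5 (3.33 ± 0.30). On the other side, RP11-356K23.1 in FOXN3 was at 1268 and 187.3 (−1.96 ± 0.21), and MIR181A2HG and AB074162, both inside the orphan nuclear receptor gene NR6A1, were at least 10.02-fold and at least 15.7-fold lower on the probes read. Both probes of RP11-475N22.4 at GATA2 were lower, at −1.90 ± 0.27 on the one measured on both arrays. The LBH589 signal of that probe, 25.3, lay within the range of the negative controls. So did the DMSO signals of RP11-82C23.2 and CTC-454M9.1.

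Opposite sterol synthesis genes there were 3 probes, all higher, with a median of 1.43, beside 49.9% of all antisense probes in the higher list: BC046483 at IDI1, given above, LOC100129518 at ACAT2, the cytosolic acetoacetyl-CoA thiolase gene (at least 2.69-fold), and CTD-2636A23.2 at HMGCS1, the HMG-CoA synthase gene (at least 1.48-fold). Only the first was measured on both arrays. The LBH589 signals of LOC100129518 and CTD-2636A23.2, 32.9 and 18.1, lay within the range of the negative controls. All 4 mRNA probes of that list that were named were at least 2-fold higher, beside 44.3% of the 1954 named mRNA probes, which were themselves selected on change. Among small nucleolar RNA hosts, besides SNHG12 and C17orf76-AS1, SNHG6 had a bound of 1.40-fold lower.

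The position of the transcripts differed between the classes. The classes are themselves defined by position against exons and introns of the gene, so a difference in position is partly built in. Of 200 intronic antisense probes, 57.0% read a transcript that lies wholly inside the gene, against 30.8% of 227 natural antisense probes. Of natural antisense probes, 37.0% read a transcript that overlaps the start of the gene (head to head) and 27.3% one that overlaps its end (tail to tail), and for intronic ones these shares were 23.5% and 10.5%. The median overlap with the gene was 1519 bases for natural and 2760 bases for intronic antisense transcripts, counted on genome positions with introns, and ran from 1 to 143064 bases over both.

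**Figure D5:**
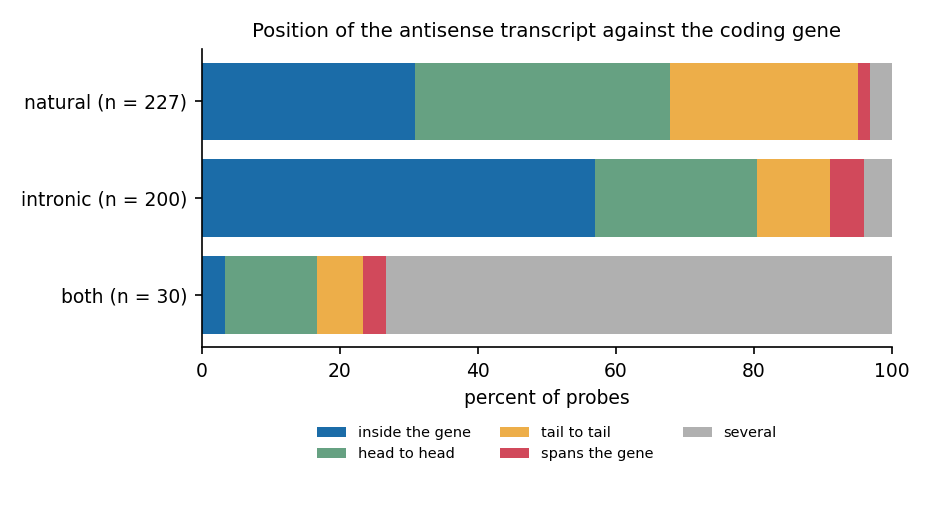
Share of probes (x, percent) by position of the antisense transcript against its coding gene, for natural antisense probes, intronic antisense probes and those with both relations. Natural antisense is spread over inside (30.8%), head to head (37.0%) and tail to tail (27.3%), while 57.0% of intronic antisense lies inside the gene; most probes with both relations have several positions.

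Beside the other lncRNAs of the same rows, antisense lncRNAs were divided nearly evenly between higher and lower lists, with 49.9% of probes in the higher list, against 52.6% of 1170 intergenic and 69.2% of 143 bidirectional probes. For intronic antisense alone the share was 44.0% and for natural antisense 54.6%. Of antisense, intergenic and bidirectional probes, 43.5%, 38.4% and 55.9% were measured on both arrays. The median transcript length was 644, 661 and 750 bases. Rows stop at a certain place in each list, so these shares describe the most changed lncRNAs only, and no test was made.

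The letters AATAAA occurred in 54 of the 457 antisense probes, 11.8%, where 10.2% of intergenic and 12.6% of bidirectional lncRNA probes held them and 2.76% of 1954 mRNA probes did. On the other strand, TTTATT occurred in 8 antisense probes, 1.75%, and in 1.38% of mRNA probes. Over all 3956 probes of the rows used, 6.52% held AATAAA. The share was 14.0% in the higher and 9.61% in the lower antisense list. AATAAA close to a probe's end, as in HOXD-AS2 and RP11-70C1.1 above, is a description of the probe's letters only and was not tested against the signal.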

How the data were processed

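The authors hybridised rRNA-depleted, amplified and Cy3-labelled RNA of DMSO-treated and LBH589-treated SK-NEP-1 cells, 1 array each, to the Arraystar Human LncRNA array and read it with Agilent Feature Extraction (10.7.3.1 per the labels, 11.0.1.1 per the file headers). The deposited scanner files hold each spot's processed signal, an intensity after background subtraction, and well-above-background, saturation and outlier flags, which are scores of 0 or 1. A deposited table holds the authors' log2 processed values of the same arrays and was used as an alternative.

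Here, control and negative-control spots and outlier spots (26 and 37 of 61184) were dropped, spots of a probe were averaged, and log2 signals were centred on each array's 75th percentile. Of 58921 probes, 66.0% (DMSO) and 63.3% (LBH589) were well above background; none was saturated. Of the 60 negative-control probes, 90 and 74 of 600 spots were also marked well above background, with median signals of 5.66 and 4.54. Gene names, relations, hg19 positions (given 1-based) and probe sequences came from the authors' annotated lists, of which the first 1406 of 3910 (higher lncRNA), 1363 of 4125 (lower lncRNA), 1002 of 3162 (higher mRNA) and 952 of 3426 (lower mRNA) rows were used; their fold changes were not. A probe's position is that of the first transcript listed for it.

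The probes and the gene lists were chosen with earlier results of these data known. Named are the 8 largest measured increases and decreases (1 probe per lncRNA), all antisense probes of HOX genes, the largest pairs of each kind, with the HOX, sterol and cell cycle pairs, lncRNAs with 3 or more probes, genes with antisense probes in both lists, and examples from gene lists, of which those of chromatin regulators and developmental factors were drawn up from the sense genes of these probes; the largest bounds, genes with many probes and the other HOX lncRNAs were added after their values were seen. No test was run, since there is 1 array per condition. Alternatives (scaling, background correction, treatment of dim probes, the deposited table) were run with Python 3.11.15, pandas 2.3.3, R 4.3.3 and limma 3.58.1 (normexp, offset 50). Scripts were tested on simulated data.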

Additional observations from a re-analysis of the deposited data

How the results depend on the processing

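The 6 counts of probes changed at least 2-fold and 5-fold and of pairs going the same or opposite ways were recomputed under 9 other settings, and 2 further ones where they applied. Other counts were not recomputed under them. Quantile normalization, a percentile taken over the doubly detected probes, the deposited table, outlier spots kept, signals before multiplicative detrending (chosen after seeing the data), only probes with 1 antisense relation, and 1 pair per gene left each of the 6 within 1.5 times where it applied. With 1 pair per gene, 14 pairs were lower in both members in place of 22. With normexp background correction, 40 probes were at least 5-fold higher and 20 at least 5-fold lower. With no scaling, which moved the median of all measured probes from −0.04 to −0.83, these were 51 and 124. With the doubly detected probes alone, 111 were at least 2-fold higher and 88 lower, and 17 pairs went the same and 4 opposite ways. With a dim probe's own value in place of its bound, 228 probes were at least 2-fold lower, 179 at least 5-fold higher and 106 lower, and 48 pairs went the same and 18 opposite ways. No difference of a named antisense probe that kept a value changed sign under these settings. The settings could hardly show such a change, as the probes were selected on change and a bound that would change sign is dropped. Values remained for 113 of 117 with no scaling and for 64 with the doubly detected probes alone. By more than the spot error, no scaling moved 86 of 113 named values, normexp 82 of 117 and a dim probe's own value 43 of 117.

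Of the 457 probes, 256 were well above background on 1 array only and were given bounds, which for 19 fell short of any fold. No paired analysis was possible because there is 1 array per condition.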
